A study of Mus musculus with 2 samples.

Results

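Trem2, Tyrobp and the genes that carry their signal into the cell were followed in immune cells of the mouse optic nerve, labelled microglia and macrophages. The 6 genes were taken by name from a table of 31053 gene rows, with no use of their values. They are Trem2, the adaptors Tyrobp and Hcst, the kinase Syk, the phospholipase Plcg2 and the phosphatase Inpp5d. All 6 had at least 1 unique molecular identifier (UMI, a barcode that stands for 1 captured transcript), as 14428 rows did. All were also among the 4021 genes that at least 10% of the cells in either library carried, the set used below for comparison. In Wildtype mice of strain 129S1/SvlmJ, male and female, an optic nerve crush was made at 8 weeks, and cells were collected 2 weeks after it, at 10 weeks of age. Control cells came from uninjured nerves of 10-week-old mice of the same genotype and strain. These ages are those of the series' design text, and the source label of both samples gives a younger age, P56. Each condition was 1 droplet library, with 727 injured and 51 uninjured cells, and the sources used here do not give the number of nerves or animals behind each.

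Trem2 is a surface receptor of microglia and macrophages that binds lipids, lipoproteins and cell debris, and it has almost no signalling domain of its own. It pairs in the membrane with the protein made from Tyrobp (DAP12), whose cytoplasmic tail holds an activation motif that recruits the kinase Syk once phosphorylated, and with that made from Hcst (DAP10), which recruits PI3 kinase. Syk acts through adaptors on the phospholipase Plcg2, which splits a membrane phosphoinositide to raise calcium, while Inpp5d (SHIP1) removes a phosphate from the product of PI3 kinase and so opposes the pathway.

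The genes lie on separate chromosomes except for the 2 adaptors. In mm10 with GENCODE vM21, Trem2 spans chr17:48346401-48354147, Syk chr13:52583173-52648792, Plcg2 chr8:117498291-117635142 and Inpp5d chr1:87620312-87720507, all protein-coding genes on the plus strand. Tyrobp lies at chr7:30413760-30417585 on the plus strand and Hcst at chr7:30417712-30419854 on the minus strand, so they run toward each other with 126 bases between their 3′ ends. Reads past either end could be taken for the other gene unless counting used strand, which the sources used here do not say. RefSeq promoter windows (GRCm38.p6) were at hand for 5 of the 6 genes. They were searched on both strands for AGGAAGT, a core bound by PU.1 and other ETS factors of myeloid cells, also read as its reverse complement ACTTCCT. Among the 250 bases before the start site, 7.69% of 32851 windows in the genome held it. The windows of Hcst and Inpp5d are printed because they held it, and that of Trem2 because its receptor is the subject here. Capitals mark the matches.
Hcst, chr7:30419855-30420104, minus strand: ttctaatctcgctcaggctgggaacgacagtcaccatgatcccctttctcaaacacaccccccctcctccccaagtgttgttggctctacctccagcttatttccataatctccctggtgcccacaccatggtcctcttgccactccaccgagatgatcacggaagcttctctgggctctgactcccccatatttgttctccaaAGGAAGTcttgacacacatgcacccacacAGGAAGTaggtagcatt
Inpp5d, chr1:87620062-87620311, plus strand: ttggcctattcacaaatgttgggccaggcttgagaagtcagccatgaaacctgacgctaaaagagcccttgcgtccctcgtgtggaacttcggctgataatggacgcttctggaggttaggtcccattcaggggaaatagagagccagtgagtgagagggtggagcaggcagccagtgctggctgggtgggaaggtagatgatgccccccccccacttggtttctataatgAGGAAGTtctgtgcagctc
Trem2, chr17:48346151-48346400, plus strand: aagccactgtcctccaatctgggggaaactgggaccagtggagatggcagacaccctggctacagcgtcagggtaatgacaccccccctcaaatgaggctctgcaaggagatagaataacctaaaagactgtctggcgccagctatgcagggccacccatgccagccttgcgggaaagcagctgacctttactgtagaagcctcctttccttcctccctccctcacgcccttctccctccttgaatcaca
The Hcst matches began 46 and 17 bases before the start site, and 0.402% of all windows held more than 1. The Inpp5d match began 19 bases before it, and a further one lay 31 bases after it. The windows of Trem2, Syk and Plcg2 did not hold these letters.

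The injured library held 3697992 UMIs and the uninjured library 87499, with medians of 1123 and 888 per cell and no shared barcode. Levels below are library sums as CPM, UMIs scaled to a common total over the same cells. With 1 library per condition there is no test, and the exact 95% intervals in parentheses cover counting error only. A count of 0 allows up to 34.3 CPM among uninjured and 0.811 CPM among injured cells. At least 1 of the macrophage genes C1qa, C1qb, C1qc and Csf1r was found in 706 injured cells (97.1%) and 47 uninjured cells (92.2%). The microglial gene P2ry12 was found in 11.4% and 33.3% of cells. Of 16 marker lists for cell types, the microglial genes summed to 5541 CPM after crush and 8514 CPM without it, and the macrophage genes to 22682 and 15429 CPM. Oligodendrocyte genes summed to 1164 and 8332 CPM, astrocyte genes to 172 and 1074 CPM, neutrophil genes to 129 and 149 CPM, and erythroid genes to 11.6 and 116538 CPM. The other 10 lists reached at most 91.4 CPM in either library, and the part of any list in the results below was not tested. One uninjured cell of 11100 UMIs was 91.8% haemoglobin and held no UMI of the 6 genes or of C1qa. It lowers every other uninjured level, so values without it are given where it matters.

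The receptor and its main adaptor were both higher in the injured library, by similar factors. Trem2 stood at 2217 CPM in the injured library (2169 to 2265, 8198 UMIs) and 823 CPM in the uninjured one (644 to 1036, 72 UMIs), a ratio of 2.69 (2.14 to 3.45). Tyrobp stood at 5041 CPM (4968 to 5113, 18640 UMIs) and 1680 CPM (1419 to 1975, 147 UMIs), a ratio of 3.0 (2.55 to 3.55). For both genes the intervals of the 2 libraries were apart. Without the haemoglobin-rich cell the ratios were 2.35 (1.87 to 3.01) for Trem2 and 2.62 (2.23 to 3.10) for Tyrobp. Leaving out any 1 uninjured cell in turn kept Trem2 between 2.35 and 2.88 and Tyrobp between 2.62 and 3.20. The 72 uninjured Trem2 UMIs were spread over 33 cells, with 8 in the highest. The 147 Tyrobp UMIs were spread over 32 cells, with 21 in the highest. On the injured side, the 99 cells over 15000 UMIs held 75.4% of the Trem2 and 73.5% of the Tyrobp UMIs. With every cell weighted equally the ratios were 1.69 for Trem2 and 2.21 for Tyrobp.

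The second adaptor and the kinase were higher as well, but on few uninjured UMIs. Hcst stood at 99.0 CPM after crush (89.1 to 110, 366 UMIs) and 34.3 CPM without it (7.07 to 100, 3 UMIs), a ratio of 2.89 (0.980 to 14.1). All 3 uninjured Hcst UMIs sat in 1 cell of 8863 UMIs. Weighted equally over cells, the Hcst ratio was 15.3. Syk was at 69.2 CPM (61.0 to 78.2, 256 UMIs) and 34.3 CPM (7.07 to 100, 3 UMIs in 3 cells), a ratio of 2.02 (0.683 to 9.86). Both intervals reach below 1, so counting error alone spans either direction.

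The phospholipase and the phosphatase were not higher in the injured library sum. Plcg2 stood at 47.3 CPM (40.6 to 54.9, 175 UMIs) after crush and 68.6 CPM (25.2 to 149, 6 UMIs) without it, a ratio of 0.690 (0.311 to 1.91). Inpp5d was at 135 CPM (123 to 147, 498 UMIs) and 171 CPM (95.9 to 283, 15 UMIs in 11 cells), a ratio of 0.786 (0.472 to 1.41). Both intervals span 1. As a rule of size, a gene was called when its levels, with 10 CPM added to each, differed at least 1.5-fold. By this rule 4 of the 6 genes were called higher (Trem2, Tyrobp, Hcst and Syk), beside 32.8% of the 4021 genes compared. None was called lower, beside 21.8%. The median log2 ratio was 1.07 over the 6 genes and 0.17 over the genes compared. Adding 100 CPM in place of 10 left 2 genes called higher, Trem2 and Tyrobp. Plcg2 was called lower when the haemoglobin-rich cell was left out or the median ratio of the genes compared was set to 1.

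Since both libraries gave the receptor and its adaptor from the same cells, their balance could be read without the library totals. Injured cells held 44.0 Trem2 UMIs per 100 Tyrobp UMIs and uninjured cells 49.0, a ratio of 0.898 (0.672 to 1.21). Over all cells this balance did not differ beyond counting error. In cells under 5000 UMIs it was lower after crush, at 35.8 and 52.9, a ratio of 0.676 (0.480 to 0.961). Among these the cells of 1000 to 5000 UMIs gave 36.7 and 65.4, a ratio of 0.561 (0.355 to 0.898). Of the UMIs in cells under 5000, the Malat1-rich kind set out below gave 176228 of 745006 injured and 25613 of 51563 uninjured. Within the shallow kinds the balance did not differ beyond counting error. Its ratios were 0.727 (0.373 to 1.41) in Malat1-rich and 0.916 (0.593 to 1.45) in Malat1-poor cells. Over all cells Inpp5d and Plcg2 were lower relative to Tyrobp. Inpp5d stood at 2.67 UMIs per 100 Tyrobp UMIs after crush and 10.2 without it, a ratio of 0.262 (0.152 to 0.483). Plcg2 stood at 0.939 and 4.08, a ratio of 0.230 (0.101 to 0.646). For Hcst the values were 1.96 and 2.04, a ratio of 0.962 (0.320 to 4.74), and for Syk 1.37 and 2.04, a ratio of 0.673 (0.223 to 3.32), both spanning 1. Within the kinds of cell set out below, Inpp5d relative to Tyrobp did not differ beyond counting error, with ratios of 0.351 (0.111 to 1.77) in deep, 0.994 (0.437 to 2.38) in Malat1-rich and 1.15 (0.191 to 46.7) in Malat1-poor cells. Plcg2 relative to Tyrobp was at 0.194 (0.0496 to 1.67) in deep and 0.362 (0.0968 to 1.71) in Malat1-rich cells.

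**Figure D1:**
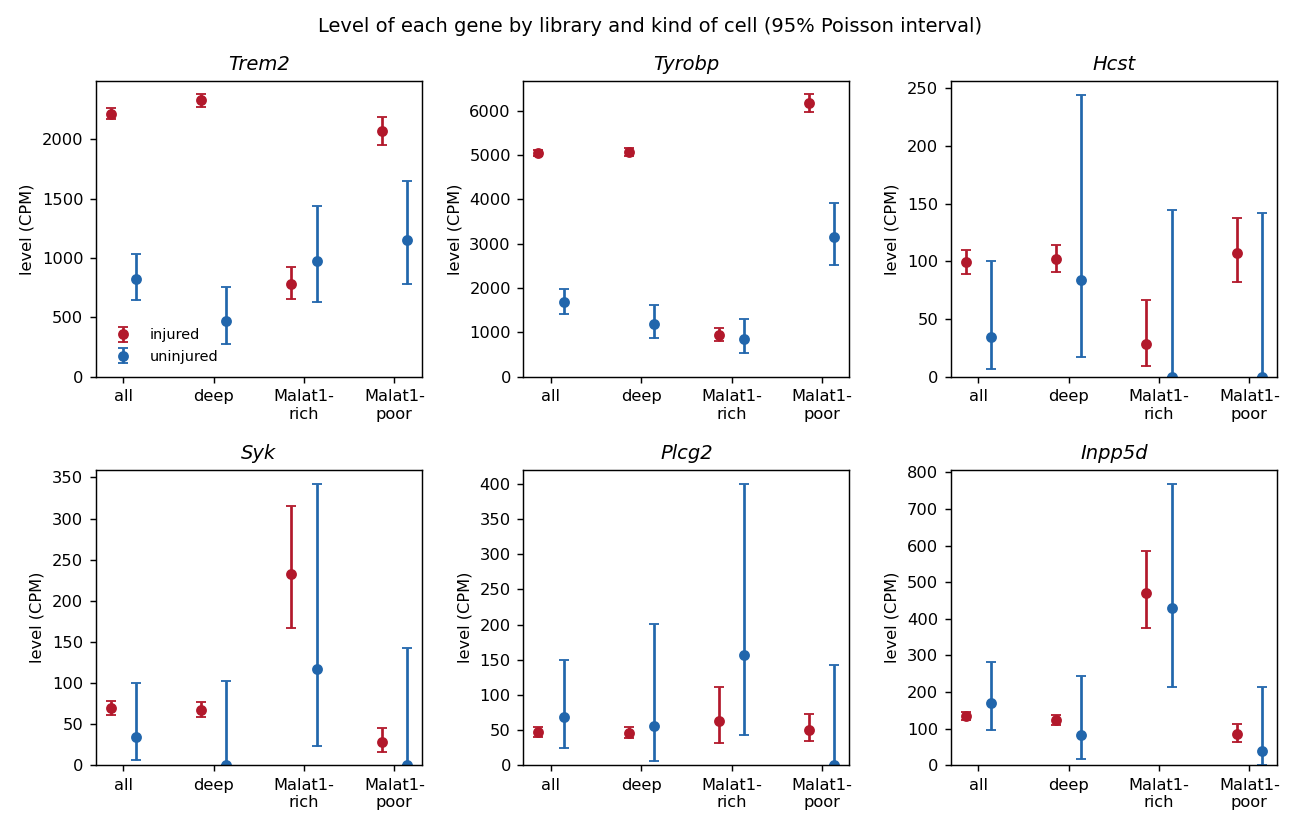
Level of each of the 6 genes (CPM, linear axis from 0, with its own scale in each panel) in all cells and in 3 kinds of cell, injured in red and uninjured in blue, with exact 95% Poisson intervals. Trem2 and Tyrobp are higher in injured deep and Malat1-poor cells and close between libraries in Malat1-rich cells, where Syk and Inpp5d are highest in both libraries.

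The cells were of 3 kinds, and the libraries held them in different proportions. Cells of 5000 UMIs or more are called deep, and the others Malat1-rich where this nuclear RNA made up 1% of UMIs or more and Malat1-poor otherwise. The injured library had 144 deep, 91 Malat1-rich and 492 Malat1-poor cells, and the uninjured library 4, 17 and 30. Malat1-rich cells gave 4.77% of injured and 29.3% of uninjured UMIs, so a gene that differs between kinds is weighted differently in the 2 library sums.

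Among deep cells Trem2 was at 2331 CPM after crush (6884 UMIs) and 473 CPM without it (17 UMIs), a ratio of 4.93 (3.08 to 8.46). Tyrobp was at 5068 and 1197 CPM (14965 and 43 UMIs), a ratio of 4.24 (3.14 to 5.85). Only 4 uninjured cells were deep, and 1 of them was the haemoglobin-rich cell. Without it the ratios were 3.41 (2.13 to 5.85) and 2.93 (2.172 to 4.05). The other 3 deep uninjured cells held 8, 2 and 7 Trem2 UMIs, or 836, 226 and 1093 CPM. In the same order they held 11, 21 and 11 Tyrobp UMIs, or 1150, 2369 and 1717 CPM. The cell with the fewest Trem2 UMIs thus had the most of Tyrobp, and it was also the 1 cell with Hcst. The range of the injured deep cells given below starts at 0 CPM for both genes, so no low value could lie outside it. All 3 cells were under the lower quartile of the injured deep cells, 1241 CPM for Trem2 and 2599 CPM for Tyrobp.

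In Malat1-poor cells the differences had the same direction and were smaller. Trem2 was at 2068 CPM after crush (1176 UMIs) and 1156 CPM without it (30 UMIs), a ratio of 1.79 (1.25 to 2.66). Tyrobp was at 6168 and 3160 CPM (3508 and 82 UMIs), a ratio of 1.95 (1.57 to 2.46). These cells also differed in other RNA. Their median mitochondrial share was 0.503% after crush and 8.11% without it, and 7 oligodendrocyte genes, all detected in both libraries, summed to 5100 and 18304 CPM. Their part in the ratios was not tested.

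In Malat1-rich cells neither gene differed beyond counting error in the sums. Trem2 was at 783 CPM in 91 injured cells (138 UMIs) and 976 CPM in 17 uninjured cells (25 UMIs), a ratio of 0.802 (0.521 to 1.28). Tyrobp was at 948 and 859 CPM (167 and 22 UMIs), a ratio of 1.10 (0.705 to 1.81). The upper bound for Trem2 lies under the lower bound for deep cells, so the 2 kinds gave different ratios as far as counting error goes. The Malat1-rich cells were not alike in the 2 libraries. Their median mitochondrial share was 10.7% after crush and 3.11% without it. P2ry12 was found in 4 of 91 injured (4.40%) and 9 of 17 uninjured cells (52.9%). The part of either in the Trem2 ratio was not tested.

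The scarcer genes could be compared by kind only where both libraries had UMIs. Inpp5d was at 124 and 83.5 CPM in deep cells (366 and 3 UMIs), 471 and 429 CPM in Malat1-rich cells (83 and 11) and 86.1 and 38.5 CPM in Malat1-poor cells (49 and 1). The ratios were 1.48 (0.504 to 7.23), 1.10 (0.582 to 2.28) and 2.24 (0.383 to 90.1). Within every kind the Inpp5d ratio was above 1, while the ratio of the library sums was 0.786. A Mantel-Haenszel ratio, which compares like kinds and then combines them, was 1.26 for Inpp5d, so its direction depends on how kinds are weighted. The same ratio was 2.25 for Trem2 and 2.53 for Tyrobp. It is not given for Hcst, Syk and Plcg2, which had no uninjured UMI in at least 1 kind. Syk in Malat1-rich cells was at 233 and 117 CPM (41 and 3 UMIs), a ratio of 1.99 (0.634 to 10.0). It had no uninjured UMI in the other kinds, where 0 allows 83.5 CPM in deep and 116 CPM in Malat1-poor cells. The injured Syk levels there, 67.4 and 28.1 CPM, lie under those limits, so no fold is given. Plcg2 was at 45.7 and 55.7 CPM in deep cells (135 and 2 UMIs) and 62.4 and 156 CPM in Malat1-rich cells (11 and 4 UMIs), ratios of 0.821 (0.223 to 6.85) and 0.400 (0.118 to 1.72). Hcst in deep cells was at 102 and 83.5 CPM (300 and 3 UMIs), a ratio of 1.22 (0.412 to 5.93), or 0.841 (0.285 to 4.10) without the haemoglobin-rich cell, and it had no UMI in the 47 shallow uninjured cells.

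By the 1.5-fold rule 3 of the 6 genes were called higher in deep cells (Trem2, Tyrobp and Syk), beside 49.8% of genes compared, and 0 lower, beside 15%. Without the haemoglobin-rich cell the ratio of Plcg2 in deep cells was 0.568 (0.154 to 4.74), which is past the rule, so the count of 0 rests on that cell. In Malat1-rich cells 2 were called higher (Hcst and Syk), beside 36.4%, and Plcg2 was called lower, beside 30.7%. In Malat1-poor cells all 6 were called higher, beside 47.8%, and 0 lower, beside 19.8%. Syk in deep cells, Hcst in Malat1-rich cells and Hcst, Syk and Plcg2 in Malat1-poor cells had no uninjured UMI, and Inpp5d in Malat1-poor cells had 1, so those calls rest on the 10 CPM that were added. With Malat1 divided at 2% in place of 1%, the ratios in Malat1-rich cells were 0.501 for Trem2 and 0.650 for Tyrobp. Divided at 0.5% they were 0.925 and 1.47.

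**Figure D2:**
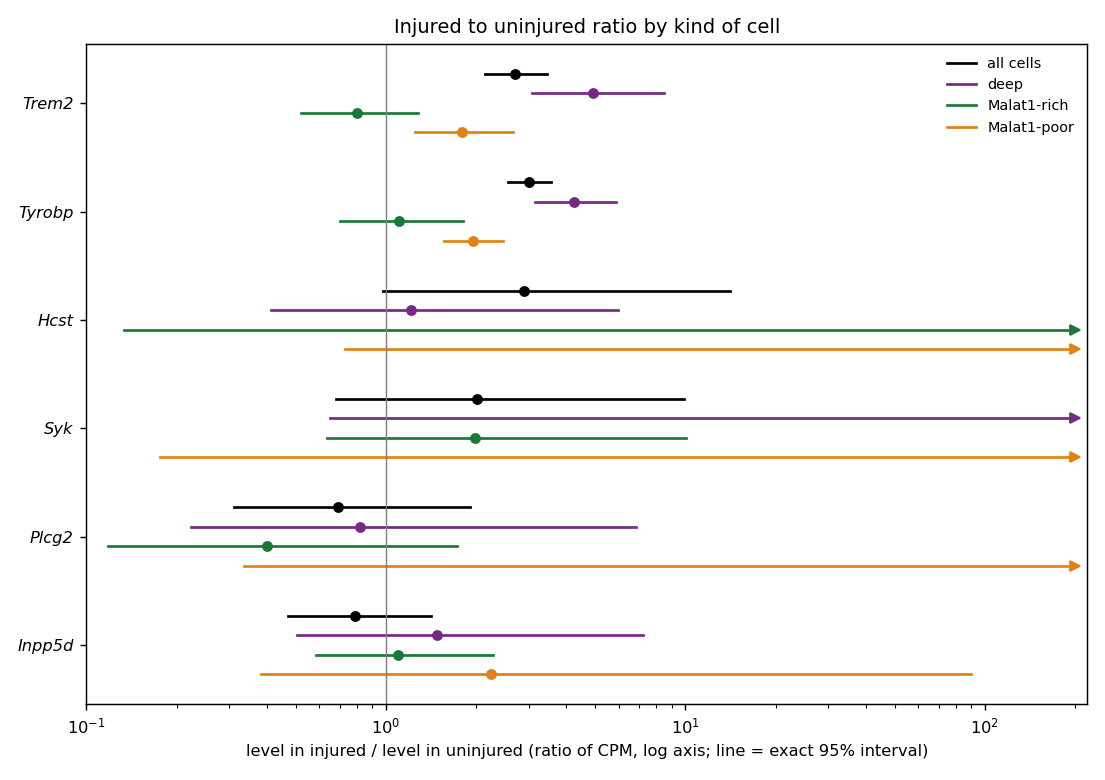
Ratio of the injured to the uninjured level of each gene on a log axis, in all cells and in 3 kinds of cell, with exact 95% intervals. Lines with an arrow and no point have no uninjured UMI and show only the lower bound; the intervals of Trem2 and Tyrobp lie above 1 in all, deep and Malat1-poor cells and cross 1 in Malat1-rich cells.

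Depth classes gave the comparison at finer steps, and the 4 uninjured cells from 5000 to 15000 UMIs are the same as the deep ones. For Trem2 the injured and uninjured levels were 1376 and 1085 CPM under 600 UMIs, 1688 and 1066 CPM from 600 to 1000, 1834 and 1063 CPM from 1000 to 5000, and 1664 and 473 CPM from 5000 to 15000. The ratios were 1.27 (0.589 to 3.25), 1.58 (0.928 to 2.93), 1.73 (1.23 to 2.51) and 3.52 (2.18 to 6.07). The uninjured Trem2 level was thus nearly the same in the 3 shallow classes, and the injured level was above it in each, beyond counting error only from 1000 UMIs up. For Tyrobp the levels were 4477 and 2169, 4893 and 2895, 4999 and 1626, and 2981 and 1197 CPM, with ratios of 2.06 (1.21 to 3.83), 1.69 (1.22 to 2.41), 3.07 (2.34 to 4.13) and 2.49 (1.84 to 3.46). All 4 Tyrobp intervals lie above 1, but the Tyrobp ratio did not rise steadily with depth. Without the haemoglobin-rich cell the uninjured levels from 5000 to 15000 UMIs were 684 CPM for Trem2 and 1731 CPM for Tyrobp, so both ratios there would be smaller. The 99 injured cells over 15000 UMIs, a depth no uninjured cell reached, held Trem2 at 2443 CPM and Tyrobp at 5417 CPM.

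Within the injured library the 6 genes fell into opposite groups when Malat1-rich cells were set against Malat1-poor cells. The receptor and adaptors were lower in Malat1-rich cells. Trem2 was at 783 against 2068 CPM, a ratio of 0.379 (0.315 to 0.452), Tyrobp at 948 against 6168 CPM, a ratio of 0.154 (0.131 to 0.179), and Hcst at 28.4 against 107 CPM, a ratio of 0.265 (0.0829 to 0.652). The kinase and the phosphatase were higher there. Syk was at 233 against 28.1 CPM, a ratio of 8.27 (4.54 to 15.8), and Inpp5d at 471 against 86.1 CPM, a ratio of 5.47 (3.80 to 7.95). Plcg2 was at 62.4 against 51.0 CPM, a ratio of 1.22 (0.552 to 2.52), and did not differ beyond counting error. By the 1.5-fold rule 2 of the 6 were higher, beside 38.3% of genes compared, and 3 lower, beside 36%.

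Against deep injured cells the split was the same. Malat1-rich cells held 0.336 of the deep level of Trem2 (0.282 to 0.398), 0.187 of that of Tyrobp (0.160 to 0.218) and 0.279 of that of Hcst (0.0900 to 0.659). They held 3.45 times the deep level of Syk (2.40 to 4.85) and 3.80 times that of Inpp5d (2.96 to 4.83). Again 2 of the 6 genes were called higher, beside 34.6% of genes compared, and 3 lower, beside 33.3%. In the uninjured library Inpp5d was again higher in Malat1-rich than in Malat1-poor cells, with a ratio of 11.1 (1.62 to 480), and Tyrobp lower, with a ratio of 0.272 (0.162 to 0.440). Trem2 there did not differ between these kinds beyond counting error, with a ratio of 0.844 (0.476 to 1.49). All 3 uninjured Syk UMIs and 4 of the 6 Plcg2 UMIs were in Malat1-rich cells. There 3 genes were called higher than in Malat1-poor cells (Syk, Plcg2 and Inpp5d), beside 44.8%, and Tyrobp lower, beside 29.7%. Against the 4 deep uninjured cells, 1 of them rich in haemoglobin, 4 genes were called higher in Malat1-rich cells (Trem2, Syk, Plcg2 and Inpp5d), beside 45%, and Hcst lower, beside 23.8%. Syk had no UMI in uninjured Malat1-poor or deep cells, Plcg2 none in the Malat1-poor and Hcst none in the Malat1-rich, so those calls rest on the added 10 CPM. Without the haemoglobin-rich cell Trem2 in deep uninjured cells was at 684 CPM beside 976 CPM in Malat1-rich cells, under the 1.5-fold rule.

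The balance of Trem2 to Tyrobp also differed between kinds of cell. In the injured library there were 82.6 Trem2 UMIs per 100 Tyrobp UMIs in Malat1-rich cells and 33.5 in Malat1-poor cells, a ratio of 2.46 (1.93 to 3.14). In the uninjured library the values were 114 and 36.6, a ratio of 3.11 (1.44 to 6.70). Between conditions the balance was 82.6 against 114 in Malat1-rich cells, a ratio of 0.727 (0.373 to 1.41), and 33.5 against 36.6 in Malat1-poor cells, a ratio of 0.916 (0.593 to 1.45). Deep cells held 46.0 after crush and 39.5 without it, a ratio of 1.16 (0.649 to 2.18).

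The 6 genes differ widely in the length of DNA from start to end, and that length ran with the contrast between kinds. Trem2 spans 7.75 kb, Tyrobp 3.83 kb and Hcst 2.14 kb, while Syk spans 65.6 kb, Inpp5d 100.2 kb and Plcg2 136.9 kb. Over the 3994 compared genes with a known span, the log2 ratio of Malat1-rich to Malat1-poor injured cells had a Pearson r of 0.51 with log10 span and a Spearman rho of 0.54. This is a correlation across genes of the same cells, which are not independent replicates. The median log2 ratio was -1.34 for 544 genes under 5 kb, -0.56 for 1355 genes of 5 to 20 kb, 0.29 for 1217 genes of 20 to 60 kb and 1.5 for 878 longer genes. The log2 ratios were -1.39 for Trem2, -2.69 for Tyrobp and -1.61 for Hcst, against 2.67 for Syk, 2.32 for Inpp5d and 0.25 for Plcg2. Plcg2 has the longest span of the 6 and the smallest difference. The part of gene length in these contrasts was not tested. For injured over uninjured in all cells the same r was -0.15.

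**Figure D3:**
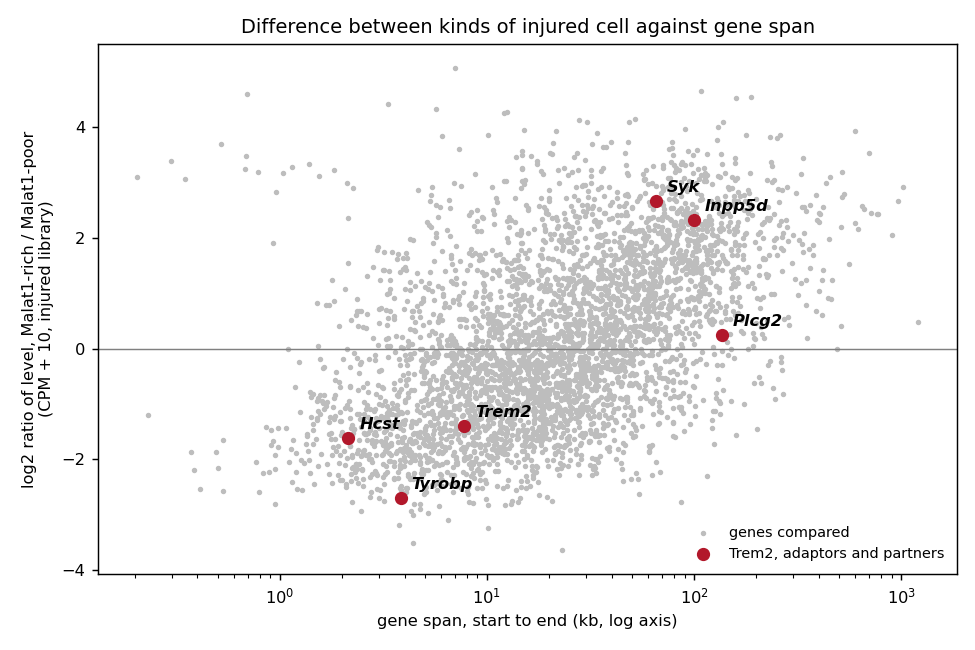
Log2 ratio of the level in Malat1-rich over Malat1-poor injured cells (10 CPM added, vertical axis) against gene span in kb on a log axis, for genes compared (grey) and the 6 genes (red). Hcst, Tyrobp and Trem2 lie at the short, negative end, Syk and Inpp5d at the long, positive end, and Plcg2 near 0.

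Counted by cell, 538 injured cells held Trem2, 74.0% of the library (70.7 to 77.2), as did 33 uninjured cells, 64.7% (50.1 to 77.6). Tyrobp was in 89.1% (86.6 to 91.3) and 62.7% (48.1 to 75.9). Hcst was seen in 22.1% and 1.96%, Syk in 18.2% and 5.88%, Plcg2 in 15.3% and 9.80% and Inpp5d in 28.9% and 21.6%. Such shares depend on depth, so each cell was also brought to 500 UMIs, leaving out 2 uninjured cells below it, and shares were computed as the expectation over all draws. The expected share of cells with Trem2 was 52.0% after crush and 41.4% without it, and 78.5% and 47.4% for Tyrobp. Expected UMIs per cell gave ratios of 1.69 for Trem2 and 2.25 for Tyrobp. A seeded draw gave 51.3% and 51.0% of cells for Trem2, with a UMI ratio of 1.26 (0.898 to 1.83), so for 49 uninjured cells the draw itself moves the value. For Syk the draw kept 20 injured and all 3 uninjured UMIs, a ratio of 0.449 (0.133 to 2.36), where the expectation was 1.26. At this depth the direction of Syk was not detectable.

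Trem2 and Tyrobp were then read together in the same cells. At 500 UMIs the expected share of cells with both was 45.5% after crush and 23.1% without it. Tyrobp without Trem2 was expected in 33.0% and 24.2%, Trem2 without Tyrobp in 6.57% and 18.3%, and neither in 14.97% and 34.3%. Before thinning, the injured library had both in 512 cells, Trem2 alone in 26, Tyrobp alone in 136 and neither in 53. The uninjured library had 24, 9, 8 and 10 such cells. Trem2 alone thus made up 3.58% (2.35 to 5.20) after crush and 17.6% (8.40 to 30.9) without it, and 6 of the 9 uninjured cells were Malat1-rich. Among Malat1-rich cells the 2 shares were 15.4% (8.67 to 24.5) and 35.3% (14.2 to 61.7), so within that kind the intervals overlap. All 137 deep injured cells with Trem2 also had Tyrobp.

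**Figure D4:**
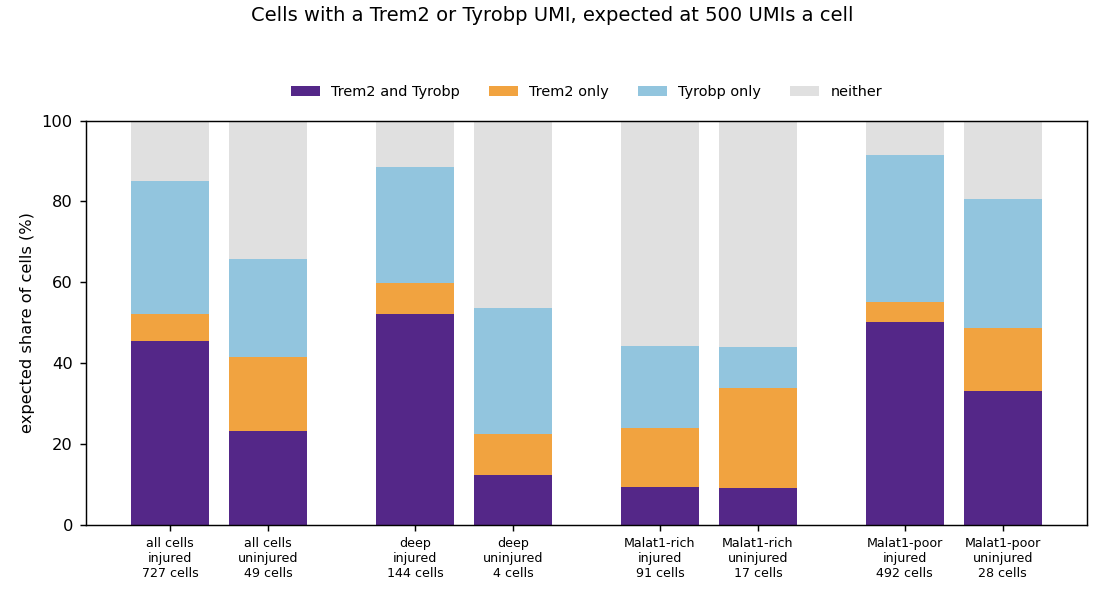
Expected share of cells (%, stacked to 100) with a UMI of Trem2 and Tyrobp, of either alone or of neither when every cell is brought to 500 UMIs, by library and kind of cell. Both genes are expected together in 45.5% of injured and 23.1% of uninjured cells, and in 9.43% and 9.16% of Malat1-rich cells.

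All 6 genes were seen together in 44 injured cells, 6.05% of the library, and every one of them was deep. None of the 4 deep uninjured cells had all 6, which with so few cells allows a share of up to 60.2% (exact binomial bound). At least 1 of Syk, Plcg2 and Inpp5d was seen beside both Trem2 and Tyrobp in 87.5% of deep injured cells and in 11.6% of Malat1-poor ones. These shares follow depth, since the median was 19206 UMIs in deep and 847.5 in Malat1-poor injured cells.

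The 144 deep injured cells allow values cell by cell. Trem2 ranged from 0 to 7147 CPM with a median of 1883, and 7 cells were at 0. Tyrobp ranged from 0 to 10558 CPM with a median of 4065, and 3 cells were at 0. Inpp5d had a median of 107 CPM and a highest value of 899, Hcst 93.7 and 1299, Syk 44.0 and 536, and Plcg2 29.6 and 231. These 4 were at 0 in 26, 37, 52 and 65 cells. Trem2 and Tyrobp were thus near universal in deep cells and varied over a wide range, whereas each of the other genes was unseen in at least 26 of them.

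Across these cells Trem2 and Tyrobp ran together. Their log2 levels (100 CPM added) had a Pearson r of 0.80 and a Spearman rho of 0.83 over 144 cells of the same library, which share its total and differ in depth. Over the 99 cells above 15000 UMIs r was 0.79. Among 3748 genes those most like Trem2 included Ctsd, a lysosomal protease (r 0.85), C1qc, a chain of complement C1q (0.85), Ctsz, another lysosomal protease (0.84), and Tyrobp. Those most like Tyrobp included Trem2, Fcer1g, the signalling chain of Fc receptors (0.80), Npc2, a lysosomal cholesterol carrier (0.79), and C1qc (0.79). Between libraries Ctsd was at a ratio of 4.42 (3.93 to 4.99), Ctsz 2.77 (2.31 to 3.36), Npc2 2.68 (2.12 to 3.42) and C1qc 1.70 (1.51 to 1.92).

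The other 4 genes were less like the receptor. The r with Trem2 was -0.14 for Hcst, -0.12 for Syk, -0.03 for Plcg2 and -0.08 for Inpp5d, beside a median of 0.00 over all genes ranked. At these UMI counts weak values are no finding. Over the 99 cells above 15000 UMIs the r with Trem2 was 0.19 for Hcst, -0.32 for Syk, -0.04 for Plcg2 and 0.07 for Inpp5d, so that of Hcst changed sign. With Tyrobp it was 0.26 for Hcst and -0.36 for Syk.

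Lymphoid cells are a known source of Hcst, and a few were present. In the injured library 7 cells held at least 2 of 10 T and NK cell genes, with a median of 5387 UMIs. They held 16 Hcst UMIs in 5 cells, or 550 CPM, against 75 CPM (30 UMIs) in 41 other injured cells of 5000 to 15000 UMIs, whose median was 10206. One of the 7 cells held a Trem2 UMI and 1 held 4 Tyrobp UMIs, so Trem2 was at 34.4 CPM there against 1760 CPM in the other cells. Inpp5d was at 138 and 168 CPM, and Syk and Plcg2 had no UMI in the 7 cells. In the other cells Syk was at 62.5 and Plcg2 at 47.5 CPM. The 7 cells held 29065 UMIs in all, too few for a count of 0 to show a lower level than these. All 10 of these marker genes were at 0 in the uninjured library and summed to 33.8 CPM in the injured one. No cell held 2 or more B cell genes.

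Around the receptor, the genes that supply and process its ligands did not share a direction. Of 5 ligand and shedding genes, 1 was called higher and 2 lower, and the rule's background is the 32.8% and 21.8% given above. Apoe, a lipoprotein that Trem2 binds, stood at 89727 CPM after crush and 16240 CPM without it, a ratio of 5.53 (5.24 to 5.82), with 769 of 1421 uninjured UMIs in 1 cell. Clu, another lipoprotein ligand, was 13.2-fold lower (3.78 to 37.7) on 16 injured and 5 uninjured UMIs, the latter in 3 Malat1-poor cells. Adam10, which sheds the receptor, was 2.07-fold lower over all cells (1.09 to 3.59). Among deep cells, the haemoglobin-rich one included, the Adam10 ratio was 2.45 on 1 uninjured UMI. It was 0.557 in the Malat1-rich and 0.319 in the Malat1-poor cells. Of the other TREM receptors only Treml2 was seen widely enough to measure, with 87 injured UMIs, or 23.5 CPM, and 0 uninjured UMIs, which allow up to 34.3 CPM.

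The other receptors that pair with Tyrobp or Hcst, or signal through it, went both ways, with 2 called higher and 2 lower of 6 measured. Siglech, a microglial lectin that uses Tyrobp, was at 33.5 against 469 CPM, 14.0-fold lower (9.57 to 20.04). Csf1r, the growth factor receptor of microglia, was 2.15-fold lower over all cells (1.82 to 2.53). Among deep cells, the haemoglobin-rich one included, the Csf1r ratio was 0.976. The Malat1-rich cells gave 0.331 and the Malat1-poor cells 0.574. Itgb2, an integrin chain, was at a ratio of 2.35 (1.19 to 5.46). Tyrobp was thus higher in the injured library while Siglech, 1 of its partners, was lower. Fcer1g, an adaptor with the same kind of motif as Tyrobp, was at 2552 and 1314 CPM, a ratio of 1.94 (1.62 to 2.35).

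Among the kinases, adaptors and lipid enzymes that work beside Syk and Plcg2, most genes lay between the thresholds or were lower. Src and Tec family kinases had 2 higher of 6, with the Src kinase Fgr at a ratio of 4.59 (0.814 to 182) on 1 uninjured UMI. Adaptors had 2 higher and 3 lower of 14, with Cblb, a ubiquitin ligase, 8.18-fold lower (2.79 to 19.9) on 6 uninjured UMIs. The PI3 kinase, Akt and mTOR genes had 4 higher and 5 lower of 13, with Ctnnb1, the gene of beta-catenin, at a ratio of 3.02 (1.46 to 7.53). The protein kinase C, Card9 and NFAT genes had 1 higher and 5 lower of 11, with the calcineurin gene Ppp3ca 2.09-fold lower (1.10 to 3.64). Phosphatases had 1 higher and 3 lower of 8, with Ptprc, the pan-leukocyte phosphatase CD45, 2.10-fold lower (1.53 to 2.83). The median log2 ratios of these 5 lists were 0.32, -0.03, -0.45, -0.29 and -0.41, beside 0.17 for all genes compared. In deep cells, the haemoglobin-rich one included, the same medians were 0.91, 0.29, 1.26, 0.29 and 0.27, beside 0.58. Thus 4 of these medians were under 0 over all cells and above 0 in deep cells. The haemoglobin-rich cell gave 11100 of the 35936 deep uninjured UMIs, which lowers the other uninjured levels, and the medians were not computed without it. Those of the adaptors, protein kinase C genes and phosphatases also lay under the 0.58 of all genes compared. The change of sign is therefore not read as a difference between kinds.

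Inhibitory receptors, which oppose the activation motif of Tyrobp by recruiting phosphatases, had 5 higher and 5 lower of 12. Over all cells Lair1, a collagen receptor, was 2.88-fold lower (2.04 to 3.97) and the sialic acid lectin Cd33 3.04-fold lower (1.36 to 5.96). Lilrb4a was at a ratio of 3.19 (1.09 to 15.6) on 3 uninjured UMIs. The lower level of Lair1 did not hold in every kind of cell. Among deep cells, the haemoglobin-rich one included, its ratio was 1.93 on 3 uninjured UMIs. The Malat1-rich cells held 33 of its 40 uninjured UMIs and gave a ratio of 0.154, while the Malat1-poor cells gave 0.867. All 4 measured members of the MS4A family, which is genetically linked to soluble TREM2, were called higher over all cells. In deep cells 2 of the 4 were, beside 49.8% of genes compared. Ms4a7 was at 337 against 22.9 CPM, a ratio of 14.8 (4.08 to 122), on 2 uninjured UMIs in 1 cell. Of 10 measured genes described as Trem2-dependent in disease-associated microglia, 9 were called higher and 1 lower, with a median log2 ratio of 1.68. Lpl, a lipase, was at 918 against 34.3 CPM, a ratio of 26.8 (9.15 to 130) on 3 uninjured UMIs. Timp2 was at 858 against 194 CPM, a ratio of 4.42 (2.75 to 7.59). The 1 lower gene was Axl, a receptor for dying cells, at a ratio of 0.605. The 6 genes described as Trem2-independent had 4 called higher, 0 lower and a median log2 ratio of 2.30, including the lysosomal protease Ctsb at a ratio of 5.69 (4.74 to 6.88). Genes described as dependent on Trem2 and those described as independent of it were thus both mostly higher in the injured library. These lists are known from other studies of the receptor and were chosen with earlier results of these libraries known, so their direction is not independent evidence.

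**Figure D5:**
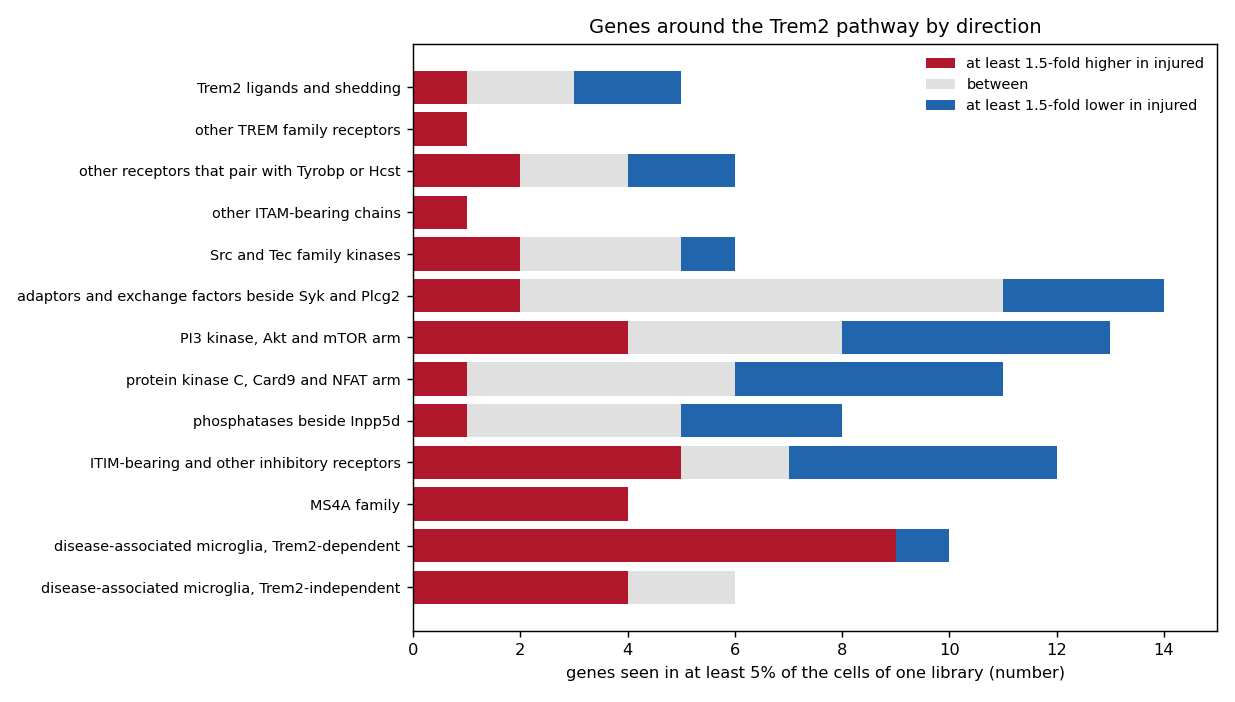
Number of measured genes in each of 13 lists around the Trem2 pathway that were at least 1.5-fold higher (red), at least 1.5-fold lower (blue) or between (grey) in the injured library, with 10 CPM added to each level. The disease-associated and MS4A lists are mostly red, with 9 of 10, 4 of 6 and 4 of 4 genes higher, while the protein kinase C, Card9 and NFAT list has 5 of 11 lower.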

How the data were processed

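Single-cell 3′ RNA was captured with 10x Genomics v2 chemistry from dissociated optic nerve, per the labels' protocols. Seurat 4.0.3, Cell Ranger 1.3, bcl2fastq 2.17.1.14 and the mm10 build are named in the submitters' processing notes. Not given in the sources used here are the annotation release, the use of strand in counting and how cells were chosen as macrophages or microglia. The deposited values are raw UMI counts, genes by cells in 1 table, with a line that names each cell's condition. It holds 778 cells, all with 200 to 6500 genes.

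From these counts, sums per library or kind of cell were scaled to CPM. Levels carry exact Poisson, shares exact Clopper-Pearson and ratios exact conditional binomial intervals at 95%. PCR and capture share their source within a library, so the intervals cover counting error only. A ratio with 0 uninjured UMIs is set against 3 counts or left out. The rule of size was a ratio of 1.5 after adding 10 CPM to each level, over genes that at least 10% of the cells in either library carried (5% for lists). The script was tested on simulated counts. No doublet caller was run, no cell was removed, and doublets among deep cells were not tested.

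The 6 genes, the kinds of cell, the 13 gene lists and the 16 marker lists were chosen with earlier results of these data known. Named genes are the 6 genes, up to 4 of each list with the largest absolute log2 ratio, the 5 genes most like Trem2 and Tyrobp across deep injured cells, and up to 2 markers per other cell type. Axl, P2ry12 and the detection genes were named outside this rule, after their values were seen. A few genes under it are left out of the text. Rows that a spreadsheet had turned into dates (26) stayed in the totals only. Python 3.11.15, numpy 2.4.6, scipy 1.17.1, pandas 2.3.3 and matplotlib 3.10.9 were used. Depth was 500 to 53972 UMIs per injured and 458 to 11100 per uninjured cell, so precision is set by the uninjured counts.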

Additional observations from a re-analysis of the deposited data

How the results depend on the processing

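The Trem2 ratio of 2.69 was 1.69 with cells weighted equally, 1.65 in cells under 5000 UMIs, 4.93 in deeper cells, 1.26 in a seeded draw of 500 UMIs per cell and 1.69 in the expectation over such draws. For Tyrobp, 3.0 in the sums, the same settings gave 2.21, 2.45, 4.24, 2.28 and 2.25, a total without mitochondrial, ribosomal protein and haemoglobin genes gave 2.51, and the Mantel-Haenszel ratio over kinds 2.53. All of these kept the direction. Hcst was at 15.3 with equal weights and 14.7 in the expectation, with all its uninjured UMIs in 1 cell. Syk turned to 0.449 in the seeded draw, which kept its 3 uninjured UMIs. Inpp5d turned to 1.48 in cells of at least 5000 UMIs, or 1.03 there without the haemoglobin-rich cell. Genes called higher numbered 2 in place of 4 with 100 CPM added. Genes called lower numbered 1 (Plcg2) in place of 0 with the median ratio set to 1 or without the haemoglobin-rich cell. Setting the median ratio to 1 takes 0.17 from each log2 ratio. By kind, the Trem2 ratio in Malat1-rich cells was 0.501 with Malat1 divided at 2% and 1.29 with deep set at 10000 UMIs. The other alternatives for the 6 ratios stayed within the counting interval of the value in the sums, which for Hcst, Syk, Plcg2 and Inpp5d is wide. Within it Inpp5d crossed 1 with the Mantel-Haenszel ratio, at 1.26, and Plcg2 did so with cells weighted equally and without the uninjured cell holding most of its UMIs, at 1.02 each. The Mantel-Haenszel ratio, the expectation over draws and the deep ratio without cells lacking C1qa were added after the data had been seen. No paired analysis was possible because each condition is 1 library. With 4 deep uninjured cells and 3 to 15 uninjured UMIs of Hcst, Syk, Plcg2 and Inpp5d, depth limits every statement on those 4 genes.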
